A study of Mus musculus with 12 samples.

Results

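The genes described here are the 34 enzymes, transporters and regulators of glycolysis and the TCA cycle named in 1 fixed list, and they were picked by an exact match of the symbol among the 55335 annotated genes of the count data. All 34 had a row. The symbol Aldoa stands on 2 rows, of which the one with the longer exons was used, and the other (exon length 799 bases) held 1 to 110 reads per library. The cells were muscle stem cells (MuSCs), taken from hindlimbs of Pax7-ZsGreen mice aged 3 to 6 months by FACS for ZsGreen, so every group came from 1 reporter strain. F cells were freshly isolated, 2d-U cells were grown for 2 days without compression, and 5d-U cells, the controls, for 5 days. 2+3d-C cells spent 2 days uncompressed and then 3 days under a device whose pillars press the cells from above. Cultured cells grew on plastic coated with Matrigel and fibronectin in a growth medium with FGF, horse serum and fetal bovine serum, and each group had 3 libraries, named by the replicate numbers of the labels. The reporter marks cells at the sort and not at the time of lysis, so a cultured library holds whatever mixture of stem, progenitor and differentiating cells the dish contained. The labels do not say which libraries came from separate animals or cultures, and p-values then measure only the spread between these libraries, which may be technical.

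Glycolysis takes glucose, carried in by transporters such as Slc2a1, through hexokinase, phosphofructokinase and aldolase to triose phosphates (the upper steps), and from there through Gapdh, Pgk1, phosphoglycerate mutase, enolase and pyruvate kinase to pyruvate (the lower steps), where ATP is made. Pyruvate is either turned to lactate by lactate dehydrogenase and exported, or enters the mitochondrion, where pyruvate dehydrogenase, held in check by the Pdk kinases, feeds it to the TCA cycle. Quiescent MuSCs are known for a low metabolic rate with much fatty acid oxidation, and their activation for a turn to glycolysis.

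Levels are given as RPKM, the reads on a gene per length of its exons and per size of the library, scaled by TMM (trimmed mean of M values), with the 3 values of a group in the order of the replicate numbers (F 1, 4 and 5, 2d-U 1, 2 and 3, 5d-U 1, 2 and 6, 2+3d-C 4, 5 and 10). Fold changes are on the log2 scale with the standard error of the fit, and genes were called changed by edgeR's quasi-likelihood test where the p, adjusted by Benjamini-Hochberg over all 22635 genes tested, was below 0.05. Libraries held 12540745 to 62424851 reads on genes. 4 libraries, F 4, F 5, 5d-U 1 and 5d-U 6, had 0.641 to 7.24 reads per kb on gene families that muscle does not use, such as olfactory receptors, against at most 0.229 in the other 8, and the count of calls without these 4 is given for each comparison. The 8 MuSC markers examined, Pax7 among them, had a summed CPM (counts scaled to a common library size) of 10300 to 13100 in 2+3d-C libraries against 1920 to 2590 for the controls, while 2d-U libraries held 2680 to 2980 CPM and fresh ones 3230 to 6740 CPM. Most of the compressed sum came from Myod1 (3870 to 5590 CPM), Sdc4 (2100 to 5880 CPM) and Vcam1 (1470 to 2860 CPM) together. Myod1 also marks activated and committed cells. Pax7 itself was at 56.5 to 72.1 CPM in 2+3d-C libraries, 14.0 to 36.9 CPM for the controls, 37.6 to 44.6 CPM for 2d-U and 10.8 to 21.1 CPM for F, so it did not follow the order of the sum. Itga7 in 2+3d-C 5 (55.1 CPM) was below all 5d-U libraries.

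Reads on the 34 genes made up 0.511% to 0.814% of all reads in F libraries and 0.515% to 0.694% in 2+3d-C libraries. The share was 2.31% to 2.43% for 2d-U and 1.86% to 2.51% for 5d-U. The uncompressed cultures thus stood above both other groups with no overlap, and the compressed libraries lay inside the range of the fresh ones. The enolases Eno1 and Eno3 alone took 0.563% to 0.688% of reads in the 6 uncompressed culture libraries and 0.0166% to 0.0923% in the other 6. In bulk RNA, fewer cells of a type and less RNA of a gene per cell cannot be told apart.

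**Figure D1:**
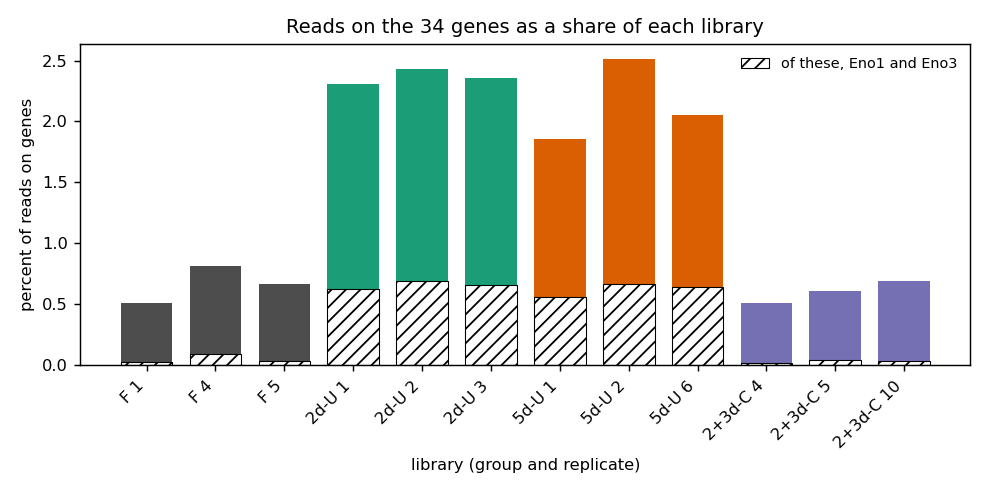
Share of each library's reads (vertical axis, percent of reads on genes) that fell on the 34 genes, by library and coloured by group; the hatched part of each bar is Eno1 and Eno3. The 2d-U and 5d-U bars reach 1.86% to 2.51%, while the F and 2+3d-C bars stay between 0.511% and 0.814%.

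The question of the main comparison was what changes when cells of the same age in culture are compressed. Between 5d-U and 2+3d-C, 5 of the 34 genes rose and 15 fell under compression, while 9.14% of all genes tested rose and 13.4% fell. The median log2 fold change of the 34 was -1.24. Over all genes tested it was -1.05, and over those with a mean of at least 5 CPM it was -0.06. The comparisons of 2+3d-C with 2d-U and with F reuse these compressed libraries, so the comparisons are not independent. The 5 genes that rose act at entry, commitment and lactate exit (Slc2a1, Slc16a3, Hk2, Pfkp and Pfkfb3). The 15 that fell were Pfkl and Tpi1 of the upper steps, 6 of the 7 genes of the lower steps, Ldha, Pdha1 and Pdk3, and 4 of the 6 TCA cycle genes. Without the 4 libraries that carried reads on silent families, 2 rose (Slc16a3 and Pfkfb3) and 11 fell.

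**Figure D2:**
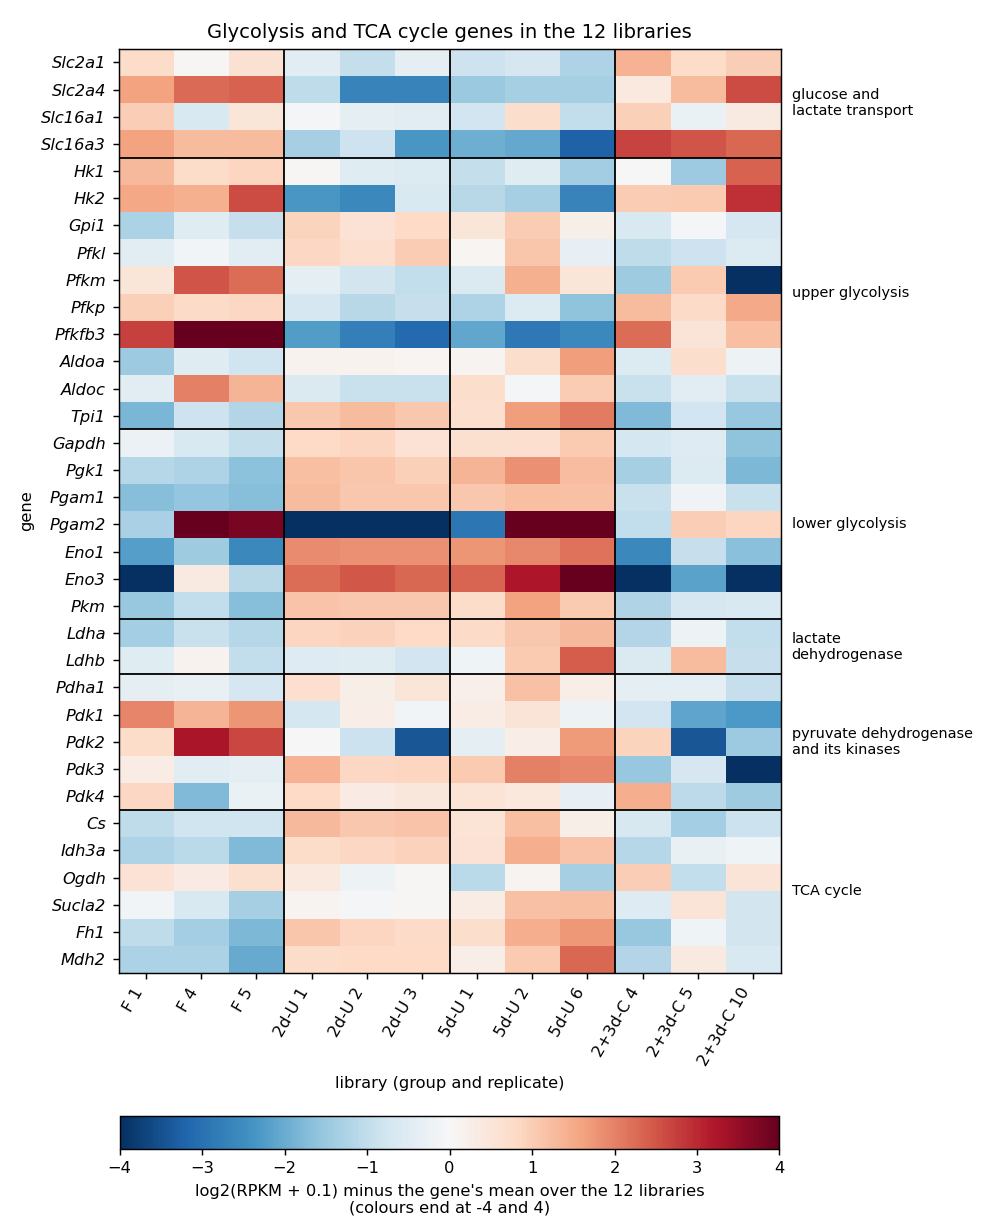
Each of the 34 genes (rows, by role) in each of the 12 libraries (columns), as log2(RPKM + 0.1) minus the gene's mean over the libraries, red above and blue below. From Tpi1 through Ldha most rows are red in 2d-U and 5d-U and blue in F and 2+3d-C, and Slc2a1, Slc16a3, Hk2, Pfkp and Pfkfb3 show the opposite.

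Among the transporters, Slc16a3, a lactate exporter of glycolytic cells, had the smallest p of the 34 genes. It stood at 33.2, 29.1 and 25.0 RPKM in 2+3d-C and at 1.22, 1.14 and 0.441 RPKM in 5d-U. The groups lay far apart, and the log2 fold change was 4.96 (SE 0.558, adjusted p = 4.48e-05), a 31.2-fold difference of the means. F libraries held 15.3, 12.2 and 12 RPKM and 2d-U libraries 1.94, 2.73 and 0.921 RPKM, so the compressed libraries were above the fresh ones as well.

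Slc2a1, the glucose transporter found in most cells, was at 67.5, 42.7 and 51.4 RPKM in 2+3d-C and at 14.4, 16.0 and 10.9 RPKM in 5d-U. It rose by 1.97 on the log2 scale (SE 0.383, adjusted p = 0.00237), with every compressed library above every control. Its levels in F were 43.4, 26.6 and 39.4 RPKM and in 2d-U 19.0, 13.4 and 19.9 RPKM. Slc2a4, the insulin-responsive transporter of muscle and fat, reached 0.739, 1.42 and 3.77 RPKM in 2+3d-C and at most 0.155 RPKM in 5d-U, a log2 difference of 3.78 that was not called (SE 1.42, adjusted p = 0.0678). Slc16a1, a lactate carrier that works in either direction, had overlapping groups, at 106, 45.5 and 69.3 RPKM against 32.3, 88.7 and 27.7 RPKM (adjusted p = 0.397).

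In the upper steps, the genes that rose (Hk2, Pfkp and Pfkfb3) act where glucose is committed to the pathway. Other genes of those steps did not rise: Pfkl fell, and Hk1 and Pfkm were not called. Hk2, the inducible hexokinase, was at 7.46, 7.69 and 28.3 RPKM in 2+3d-C and at 1.65, 1.38 and 0.483 RPKM in 5d-U and rose (adjusted p = 0.00407). Replicate 10 was the highest of the compressed libraries, and the lowest of them was still above all controls. Its housekeeping relative Hk1 had means of 36.0 ± 43.3 and 8.87 ± 2.90 RPKM (SD, n = 3), and the first mean rested on replicate 10 with 85.6 RPKM beside 16.5 and 5.93 RPKM in the others. The groups overlapped, and Hk1 was not called (log2 2.02, SE 0.702, adjusted p = 0.0513).

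Pfkfb3 makes fructose 2,6-bisphosphate, the strongest activator of phosphofructokinase. It stood at 13.0, 3.85 and 6.35 RPKM in 2+3d-C against 0.558, 0.282 and 0.369 RPKM in 5d-U, which is 19.2-fold by the means (log2 4.26, SE 0.631, adjusted p = 0.000352). In F it was higher still, at 18.3, 63.0 and 59.8 RPKM. Of the 97 reads on Pfkfb3 in 5d-U 1, 29.9% would be expected from the density of reads on silent families.

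The 3 phosphofructokinase genes moved apart. Pfkp, the platelet form, was at 25.5, 18.1 and 30.8 RPKM in 2+3d-C and 4.51, 7.26 and 3.45 RPKM in 5d-U, and rose by 2.29 on the log2 scale (SE 0.392, adjusted p = 0.00103). Pfkl, the liver form, was at 5.11, 5.83 and 7.20 RPKM against 11.1, 22.5 and 8.30 RPKM and fell (adjusted p = 0.0482). The call on Pfkl was lost when any 1 of 11 libraries was left out (all except 5d-U 6), with an adjusted p of up to 0.226. Pfkm, the muscle form, had means of 2.27 ± 3.08 and 4.41 ± 2.92 RPKM (SD, n = 3) and overlapping groups.

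Tpi1, which interconverts the triose phosphates, was at 27.3, 55.8 and 32.9 RPKM in 2+3d-C and 151, 301 and 397 RPKM in 5d-U. It fell by 2.87 (SE 0.463, adjusted p = 0.000664), and no library of either group came near the other. Gpi1, the isomerase behind hexokinase, had means of 32.4 and 66.6 RPKM without overlap but was not called (log2 -1.04, SE 0.369, adjusted p = 0.0551). Aldoa, the muscle aldolase and the highest by RPKM of the upper-step genes in all groups, was at 356, 843 and 447 RPKM against 565, 846 and 1640 RPKM, and its groups overlapped (log2 -0.89, SE 0.464, adjusted p = 0.145). Aldoc, the brain form, stayed under 1 RPKM in all 12 libraries.

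In the lower steps, Gapdh, Pgk1, Pgam1, Eno1, Eno3 and Pkm fell and none rose, by edgeR, DESeq2 or an unadjusted p under 0.05. Eno1, the enolase of most cells, was at 34.2, 107 and 64.0 RPKM in 2+3d-C and 697, 783 and 917 RPKM in 5d-U. The means differed 11.7-fold, and the log2 change was -3.54 (SE 0.486, adjusted p = 0.000201). Eno3, the enolase of skeletal muscle, was at 5.95, 36.1 and 9.46 RPKM against 793, 1510 and 2670 RPKM. It had the largest change of the 34 genes in this comparison, with a log2 value of -6.60 (SE 1.14, adjusted p = 0.00107).

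Pgk1, the first ATP-forming step, stood at 31.1, 54.3 and 22.5 RPKM under compression and 201, 278 and 186 RPKM without (log2 -2.63, SE 0.410, adjusted p = 0.000513). Pgam1, the general phosphoglycerate mutase, was at 27.7, 46.5 and 28.0 RPKM against 110, 120 and 117 RPKM (log2 -1.76, SE 0.350, adjusted p = 0.00263). Pkm, pyruvate kinase, was at 152, 216 and 226 RPKM against 577, 1070 and 717 RPKM (log2 -2.00, SE 0.384, adjusted p = 0.00219). In all 3 genes the highest compressed library was well below the lowest control. Counts per gene cannot separate the M1 and M2 forms of Pkm.

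Gapdh, which feeds NADH to the cell as it oxidizes the triose phosphate, was at 4.15, 4.79 and 2.18 RPKM against 10.8, 10.9 and 14.3 RPKM, and its call (adjusted p = 0.0140) was lost without 5d-U 6 or 2+3d-C 10, with an adjusted p of up to 0.0661. In its main transcript, 88.1% of the stretches of read length (75 bases) occur in other annotated genes as well, 121 in number. The reads counted on those genes came to 90.0% to 479% of the reads counted on Gapdh. Such stretches also made up 67.5% of Pgk1, 65.4% of Eno1 and 40.6% of Pgam1, but there the other genes held at most 2.57% as many reads as the gene itself. How reads with several matches were handled was not tested, so the RPKM of these 4 genes are uncertain beside those of other genes. In all, 9 of the 34 genes shared over 10% of their stretches. Among them Pfkp shared 16.6% with Pitrm1, which held 22.8% to 60.6% as many reads as Pfkp in 2+3d-C and 144% to 166% in 5d-U, so its values are uncertain too.

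Pgam2, the muscle phosphoglycerate mutase, was the 1 gene of the lower steps without a call. It was at 1.81, 7.33 and 6.80 RPKM in 2+3d-C and at 0.414, 76.1 and 285 RPKM in 5d-U, and the difference was not called (adjusted p = 0.0647). Its control libraries thus spread over more than the whole range of the compressed ones. The summed level of 12 myofiber markers moved with it, at 181, 1530 and 1810 CPM in 5d-U and 90.3, 139 and 107 CPM in 2+3d-C, and their part in the result was not tested. In 2d-U, where Eno3 was at 747, 882 and 785 RPKM, the marker sum was 65.2 to 116 CPM, mostly Acta1 (53.3 to 93.6 CPM) and Tnnt3 (8.0 to 15.0 CPM), with Myh1, Myh2, Myh4, Mb and Casq1 at 0.

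Ldha, the dehydrogenase subunit that favours lactate formation, was at 232, 455 and 266 RPKM in 2+3d-C and 889, 1100 and 1290 RPKM in 5d-U. It fell by 1.78 (SE 0.376, adjusted p = 0.00390), without overlap. Ldha and the lactate exporter Slc16a3 thus changed in opposite directions, while Slc16a1, which also carries lactate, was not called. Ldhb, the heart subunit, was at 18.6, 66 and 14.7 RPKM against 24.5, 57.3 and 149 RPKM and was not called (adjusted p = 0.156).

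**Figure D3:**
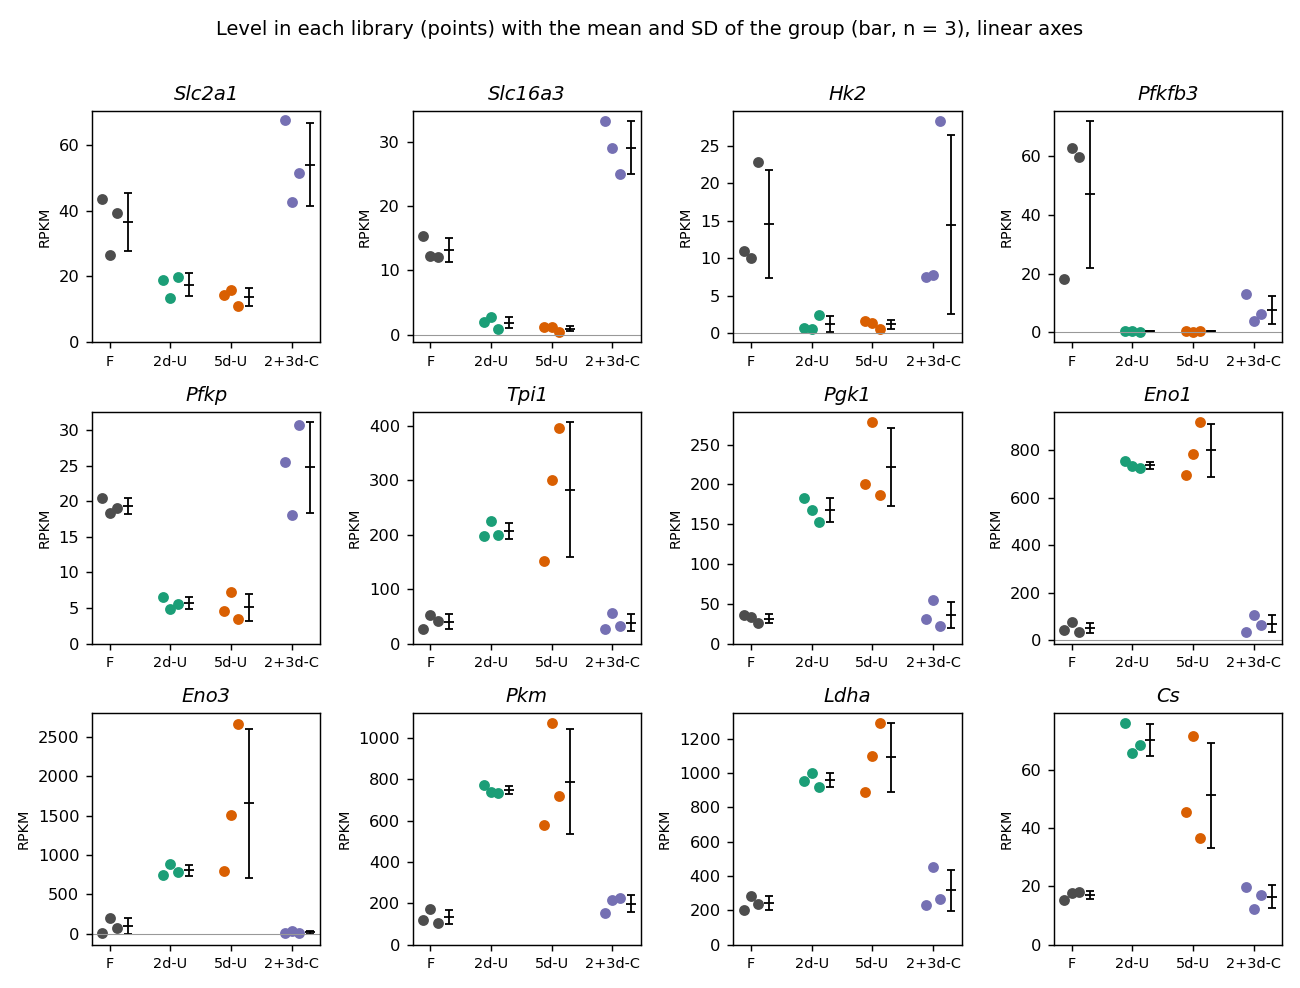
RPKM (linear vertical axes) of 12 of the genes in the 4 groups; each point is a library and the bar beside it is the mean with the SD (n = 3). Slc2a1, Slc16a3, Hk2, Pfkfb3 and Pfkp are lowest in 2d-U and 5d-U, whereas Tpi1, Pgk1, Eno1, Eno3, Pkm, Ldha and Cs are highest there.

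At the entry to the mitochondrion, Pdha1, a catalytic subunit of pyruvate dehydrogenase, was at 21.9, 21.1 and 14.5 RPKM in 2+3d-C and 31.8, 62.7 and 33.7 RPKM in 5d-U. Its call was marginal (adjusted p = 0.0435) and was lost with any 1 of the 12 libraries left out (adjusted p up to 0.171). Of the kinases that switch the enzyme off, Pdk3 fell, from 14.7, 28.7 and 27.2 RPKM to 2.42, 4.43 and 0.0714 RPKM (adjusted p = 0.0153). Pdk4, the kinase linked to fasting and fat oxidation, had almost equal means, 23.1 ± 25.8 and 23.0 ± 6.62 RPKM (SD, n = 3), with a compressed library at 52.8 RPKM and the other two at 9.29 and 7.09 RPKM. Its log2 difference was 0.01 with an SE of 0.711, which leaves room for a change in either direction. Pdk1 (means 0.0687 and 0.483 RPKM) and Pdk2 (means 0.715 and 1.75 RPKM) were low in both groups and were not called.

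In the TCA cycle, Cs, Idh3a, Fh1 and Mdh2 fell. Cs, citrate synthase, which joins acetyl-CoA to the cycle, was at 19.9, 12.2 and 17.2 RPKM against 45.5, 71.5 and 36.6 RPKM (adjusted p = 0.00591). Fh1, fumarase, was at 12.8, 32.3 and 22.0 RPKM against 59.5, 101 and 122 RPKM (log2 -2.07, SE 0.436, adjusted p = 0.00377). In both genes the groups were apart. The compressed mean of Idh3a, a subunit of isocitrate dehydrogenase, was 51.0 ± 16.6 RPKM against 152 ± 44.5 RPKM (SD, n = 3), and its call (adjusted p = 0.0103) was lost without 2+3d-C 4 (adjusted p = 0.0580).

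Mdh2, mitochondrial malate dehydrogenase, spread widely, at 89.3, 254 and 130 RPKM against 240, 416 and 979 RPKM. The groups overlapped, since 2+3d-C 5 was above 5d-U 1, and the call (adjusted p = 0.0253) was lost without 5d-U 6, 2+3d-C 4 or 2+3d-C 10 (adjusted p up to 0.149). Sucla2, of succinyl-CoA synthetase, had means of 39.6 and 84.0 RPKM and Ogdh, of the oxoglutarate dehydrogenase complex, 29.9 and 14.8 RPKM, with overlapping libraries in both, and neither was called. Ogdh was the 1 TCA cycle gene with a higher mean under compression.

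Of the 20 genes called, 15 stayed called whichever of the 12 libraries was dropped. Eno1, Eno3 and Slc16a3 were also called under all 9 other settings tried. Without the 4 libraries with reads on silent families, which leaves 5d-U 2 as the only control, Hk2, Pfkp, Slc2a1, Pdk3, Gapdh, Pdha1 and Mdh2 were not called. Several marker lists of other cells differed between these groups. The summed levels in 2+3d-C and 5d-U were 207 to 227 and 2.25 to 36.0 CPM for 7 endothelial genes, 583 to 743 and 11.2 to 210 CPM for 7 fibroadipogenic genes, 171 to 403 and 4.22 to 14.9 CPM for 5 glial genes, and 25.5 to 210 and 0.136 to 0.382 CPM for 6 erythroid genes. The sums overlapped for 8 immune genes (6.21 to 55.7 and 16.6 to 139 CPM). They also did for 6 smooth muscle or pericyte genes (285 to 733 and 58.4 to 623 CPM). Acta2 supplied 619 and 478 CPM of the latter sum in 5d-U 2 and 5d-U 6. Taken singly, Myh11 (9.73 to 78.7 and 0.136 to 2.24 CPM) and Notch3 (51.6 to 391 and 1.81 to 6.93 CPM) were higher under compression without overlap. So were Rgs5 and Kcnj8, while Acta2 and Abcc9 had overlapping groups. Cd34 made up 149 of the 210 CPM on fibroadipogenic genes in 5d-U 1. The part of such other cells in the changes of the 34 genes was not tested.

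The promoters of 4 genes are printed because they stand for both directions: Slc16a3 and Pfkfb3 rose, Eno1 and Ldha fell. The stretches are the 250 bases before the start site (RefSeq, GRCm38.p6) at chr11:120948817-120949066 (plus strand), chr2:11502091-11502340 (minus strand), chr4:150236458-150236707 (plus strand) and chr7:46845554-46845803 (plus strand). Each is given 5′ to 3′ on the strand of its gene. Capitals mark ACGTG on either strand, a form of the core that hypoxia-inducible factors bind. They also mark CACGTG, the E-box of Myc and related factors, which holds ACGTG on both strands and was counted as 1 place.
Slc16a3: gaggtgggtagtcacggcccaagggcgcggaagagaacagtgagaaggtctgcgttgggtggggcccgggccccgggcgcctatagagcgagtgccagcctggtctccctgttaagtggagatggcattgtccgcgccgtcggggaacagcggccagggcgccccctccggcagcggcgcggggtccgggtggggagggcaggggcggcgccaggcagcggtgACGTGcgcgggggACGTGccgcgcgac
Pfkfb3: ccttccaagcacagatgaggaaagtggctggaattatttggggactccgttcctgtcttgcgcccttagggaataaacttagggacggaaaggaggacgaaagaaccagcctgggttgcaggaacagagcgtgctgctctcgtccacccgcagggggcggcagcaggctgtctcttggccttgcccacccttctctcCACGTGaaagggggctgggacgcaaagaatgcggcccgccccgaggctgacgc
Eno1: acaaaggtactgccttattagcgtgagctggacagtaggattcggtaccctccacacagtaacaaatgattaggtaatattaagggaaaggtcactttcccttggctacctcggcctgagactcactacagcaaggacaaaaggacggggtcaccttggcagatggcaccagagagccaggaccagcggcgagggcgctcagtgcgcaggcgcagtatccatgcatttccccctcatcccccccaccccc
Ldha: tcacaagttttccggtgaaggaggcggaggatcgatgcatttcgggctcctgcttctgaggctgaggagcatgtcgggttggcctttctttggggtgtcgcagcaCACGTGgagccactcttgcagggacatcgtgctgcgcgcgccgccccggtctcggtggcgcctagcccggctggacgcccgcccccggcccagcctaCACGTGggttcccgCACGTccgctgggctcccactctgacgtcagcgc

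Ldha, which fell, had 3 such places, Slc16a3 had 2 and Pfkfb3 had 1, while Eno1 had no ACGTG in this window. GCGTG, the other form of the hypoxia core, was not searched for, and the printed Eno1 and Pfkfb3 windows each hold it. Of the 32 genes with a promoter in the table, 12 (37.5%) had at least 1 place and 5 had CACGTG, beside 16.6% and 6.02% of all 32851 promoters. Among them were 4 of the 5 genes that rose (Slc2a1, Slc16a3, Hk2 and Pfkfb3) 4 of 14 that fell (Pgk1, Pgam1, Ldha and Pdk3) and 4 of 13 without a call. Slc2a4 and Idh3a had no entry. These letters are a description of the sequence and do not show binding.

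Against 2d-U, the culture at the time the device was applied, 7 genes were higher in 2+3d-C and 14 lower, with 16.0% and 8.63% of all genes. With the 4 libraries named above left out, 6 were higher and 13 lower. Eno1 (-3.43, SE 0.483, adjusted p = 0.000205), Eno3 (-5.56, SE 1.08, adjusted p = 0.00216) and Pgk1 (-2.22, SE 0.403, adjusted p = 0.00129) were lower on the log2 scale. Cs was lower by a log2 value of -2.09 (SE 0.376, adjusted p = 0.00120). Slc16a3 (3.97, SE 0.532, adjusted p = 0.000138), Pfkfb3 (4.49, SE 0.636, adjusted p = 0.000212) and Pfkp (2.13, SE 0.390, adjusted p = 0.00138) were higher. The groups of each of these 7 genes did not overlap, but the share of all genes tested without overlap was not counted.

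Pgam2 had no read in any 2d-U library and 81, 51 and 125 reads in 2+3d-C. By the means it was at least 55.6-fold higher, taking 3 reads per library as the floor, and 2+3d-C 4 alone gave 18.9-fold. Slc2a4 was called higher than in 2d-U as well, at means of 1.98 and 0.0707 RPKM (adjusted p = 0.0310), but not without 2d-U 2, 2d-U 3 or 2+3d-C 10 (adjusted p up to 0.0762). Gpi1 was lower (adjusted p = 0.0307), and that call was lost without any of the 3 libraries of 2d-U or without 2+3d-C 4 or 2+3d-C 10 (adjusted p up to 0.127). Aldoa, with means of 549 and 563 RPKM, and Sucla2, with 39.6 and 44.2 RPKM, lay close together in these groups, with log2 differences of -0.04 (SE 0.461) and -0.16 (SE 0.442). The calls on Pfkl, Gapdh, Idh3a, Fh1, Pdk3 and Slc2a1 were each lost without 1 or more single libraries, with an adjusted p of up to 0.118 (Idh3a without 2+3d-C 4).

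Compression against fresh cells gave a single call, Pfkfb3. None of the 34 genes was called higher and 1 was called lower by edgeR, while 1.94% and 4.47% of all genes were. At an unadjusted p under 0.05, 4 were higher and 5 lower, and DESeq2 called 1 higher and 4 lower. Without the 4 libraries, which leaves F 1 as the only fresh library, edgeR called 0. The median log2 difference was 0.07 with TMM, -0.36 with library size and -0.12 with DESeq2, so its sign depended on the scaling. Pfkfb3 fell short of F by 2.60 on the log2 scale (SE 0.581, adjusted p = 0.0227), a call that was lost without F 4, F 5, 2+3d-C 5 or 2+3d-C 10 (adjusted p up to 0.0844).

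Some genes called against 5d-U had these differences from F. Eno1 had means of 68.5 ± 36.8 RPKM in 2+3d-C and 51.3 ± 22.1 RPKM in F (SD, n = 3), a log2 difference of 0.42 (SE 0.440). Tpi1 differed by -0.07 (SE 0.432), Ldha by 0.39 (SE 0.366), Cs by -0.06 (SE 0.362) and Hk2 by -0.01 (SE 0.693). Eno3 and Idh3a differed more, by -2.47 (SE 0.942, edgeR adjusted p = 0.102) and 0.86 (SE 0.386, edgeR adjusted p = 0.127), and were not called. In some genes the libraries did not overlap although no call was made: the 2+3d-C libraries lay above those of F for Slc16a3, Pgam1 and Mdh2 (log2 1.15, 1.05 and 1.14) and below them for Pfkl, Pdk1 and Pdk3 (log2 -0.47, -4.37 and -1.49), and also for Aldoc, which had at most 1 read in 2+3d-C. The share of all genes tested whose libraries lay apart in this way was not counted, so the list is a description only. Pdk1 stood at 1.82, 1.18 and 1.57 RPKM in F and at 0.190, 0.0155 and 0 RPKM in 2+3d-C, with an adjusted p of 0.0521.

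Fresh libraries also differed among themselves. Eno3 was at 4.95, 205 and 74.2 RPKM and Pgam2 at 1.44, 101 and 52.1 RPKM in F 1, F 4 and F 5, and the sum of the 12 myofiber markers was 47.3, 3710 and 2480 CPM in the same order. Pfkm (3.85, 16.0 and 13.2 RPKM) and Pdk2 (1.66, 10.2 and 6.66 RPKM) followed this order. The 4 genes were thus high in the libraries with many myofiber reads and low in F 1, and the part of myofiber RNA in this was not tested.

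The change from F to 2d-U asks what leaving the muscle and 2 days in culture did. Here 14 genes rose and 8 fell, beside 10.6% and 33.3% of all genes, and the median log2 value of the 34 was 0.77 against -1.63 over all genes tested. When the 4 libraries were left out, 9 rose and 4 fell. Markers of other cells moved with this step: endothelial genes summed to 1030 to 1940 CPM in F and 4.66 to 8.95 CPM in 2d-U, fibroadipogenic genes to 2390 to 7540 and 252 to 302 CPM, immune genes to 557 to 1180 and 5.16 to 16.5 CPM, and erythroid genes to 194 to 669 and 0.148 to 0.248 CPM. In 2d-U nearly the whole fibroadipogenic sum was Cd34 (248 to 288 CPM), with Pdgfra, Lum, Dpt and Pi16 at 0. The part of other cells in the result was not tested. Every lower-step gene except Pgam2 rose. Eno1 went from 44.0, 76.2 and 33.8 RPKM to 753, 733 and 724 RPKM (log2 3.84, SE 0.493, adjusted p = 0.000121) and Pgam1 from 15.7, 17.7 and 15.9 RPKM to 124, 109 and 109 RPKM (log2 2.79, SE 0.363, adjusted p = 0.000134). Pkm went from 122, 174 and 107 RPKM to 772, 739 and 733 RPKM (log2 2.48, SE 0.391, adjusted p = 0.000523). The 2d-U libraries were close to each other in all 3 genes and far above every fresh library.

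Cs (log2 2.03, SE 0.375, adjusted p = 0.00142) and Idh3a (log2 2.17, SE 0.400, adjusted p = 0.00140) rose with them, as did Fh1 and Mdh2 of the TCA cycle. Pfkfb3 had the smallest p and fell from 18.3, 63.0 and 59.8 RPKM to 0.498, 0.316 and 0.220 RPKM, which is 137-fold by the means (log2 -7.09, SE 0.717, adjusted p = 2.73e-05). Hk2, Pfkp, Slc2a1, Slc2a4 and Slc16a3 fell too, Slc16a3 by 2.82 (SE 0.505, adjusted p = 0.00118). Pgam2 went from 29, 2633 and 1730 reads to 0 in each library, at least 538-fold lower by the means with the floor of 3 reads per library. Without F 4 this limit was 280.0-fold, and F 1 alone gave 15.0-fold. The call on Aldoc, which held 3, 65 and 48 reads in F with 24.9% to 49.2% of them expected from the reads on silent families, was lost after subtraction of those reads (adjusted p = 0.071). Calls on Eno3 (without F 5, adjusted p = 0.0756), Pfkl, Gapdh and Slc2a1 (adjusted p up to 0.107, 0.103 and 0.142) were lost without single libraries.

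Against the same F libraries, 5d-U cells had 15 genes higher and 5 lower beside 11.6% and 8.90% of all genes. Aldoa (means 1020 and 285 RPKM, adjusted p = 0.0125) and Sucla2 (means 84.0 and 28.7 RPKM, adjusted p = 0.0238) were higher here although neither was called at day 2. The call on Aldoa was lost without F 1 or 5d-U 6, and that on Sucla2 without any library of F or without 5d-U 2 or 5d-U 6 (adjusted p up to 0.107 and 0.114). Cs, Gpi1, Gapdh and Slc2a1 also lost their calls without single libraries (adjusted p up to 0.157, for Gapdh without 5d-U 6). Without the 4 libraries that carried reads on silent families, 1 library was left in each group and 1 gene, Pkm, was called. Between day 2 and day 5 without compression, 1 gene rose and none fell, beside 1.87% and 0.243% of all genes. Only 3 were higher and none lower at an unadjusted p under 0.05, and DESeq2 called 1 and 0.

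The gene called between the uncompressed days was Pgam2, from 0 reads in each 2d-U library to 8, 1833 and 4891 reads in 5d-U, at least 1260-fold by the means with the floor of 3 reads per library. This limit rests on 5d-U 6: without it the limit was 401-fold, and 5d-U 1 alone gave 4.34-fold. The call was not made in the fit of these 2 groups alone, without the 4 libraries, or after subtraction of the reads expected from silent families (adjusted p up to 0.123). In 5d-U 1, where Pgam2 had 8 reads, 40.4% of them were expected from those families. Ldhb had means of 18.4 ± 1.94 RPKM at day 2 and 77.1 ± 64.8 RPKM at day 5 (SD, n = 3) with no overlap, but was not called (adjusted p = 0.0975). Eno1, with means of 737 and 799 RPKM, and Pkm, with 748 and 789 RPKM, differed by 0.12 (SE 0.440) and 0.08 (SE 0.370) on the log2 scale.

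The differences of 2d-U from F and of 2+3d-C from 5d-U, which share no library, were placed side by side. Both are called steps here, although 5d-U was not the state before compression. The 5d-U and 2+3d-C cells both went on from uncompressed culture at day 2. Mdh2, counted below among the genes that turned, was not called when compressed cells were set against 2d-U (adjusted p = 0.128). 18 of the 34 genes were called in both steps, and all 18 turned: 13 rose in culture and were lower under compression (Pfkl, Tpi1, Gapdh, Pgk1, Pgam1, Eno1, Eno3, Pkm, Ldha, Cs, Idh3a, Fh1 and Mdh2) and 5 did the reverse (Slc2a1, Slc16a3, Hk2, Pfkp and Pfkfb3). Over all genes, 87.2% of the 3159 called in both steps turned as well. With DESeq2, 22 were called in both and 20 turned. By edgeR, Pfkm, Aldoc, Pgam2, Ldhb, Pdk1 and Pdk2 had negative log2 values in both steps, and Pdk4 had positive ones. None of these genes was called in both.

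**Figure D4:**
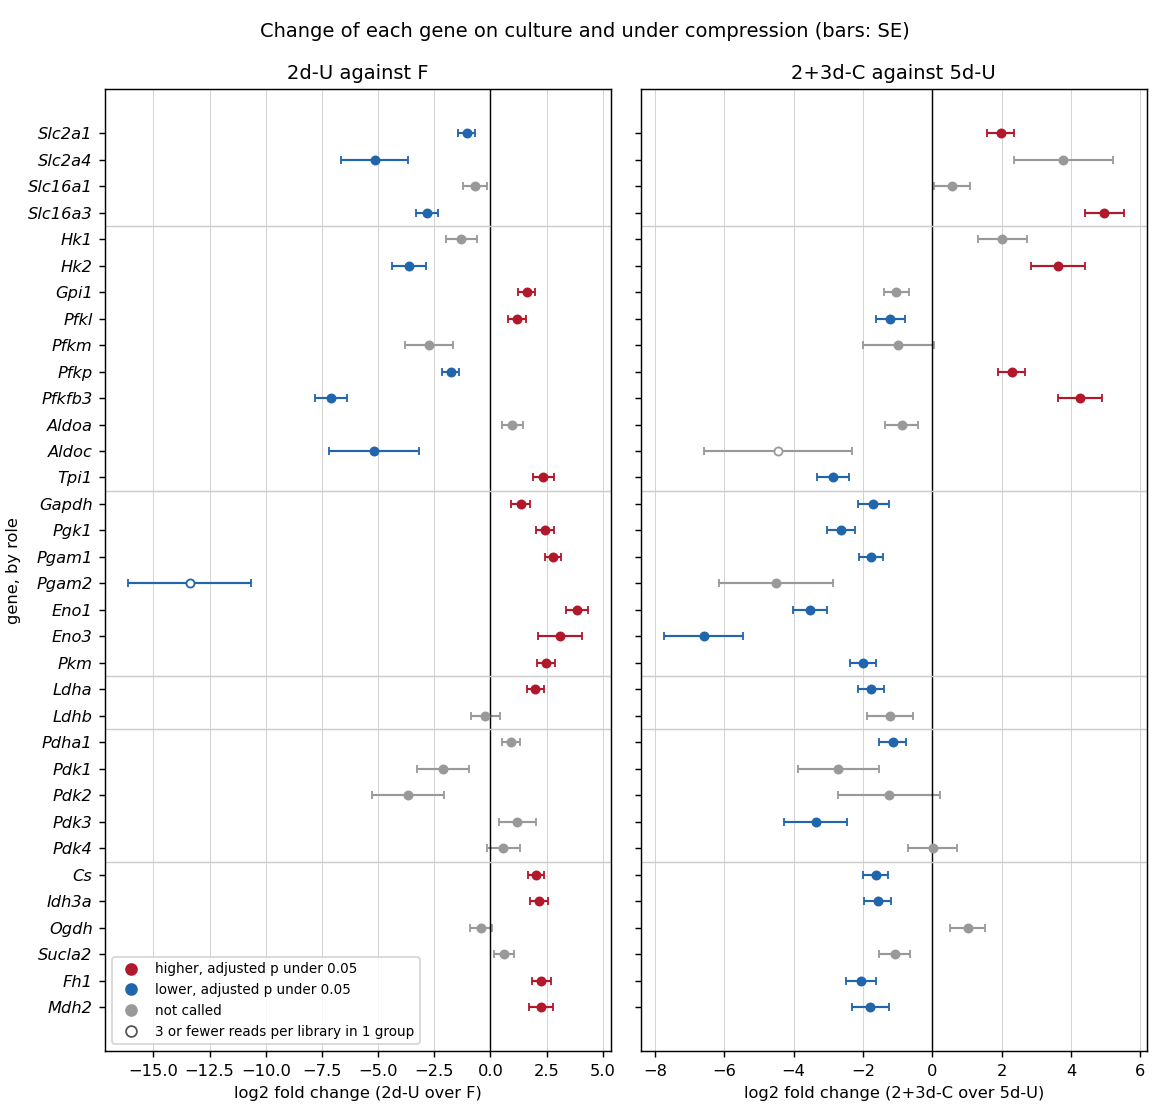
Log2 fold change of each gene (points, bars are the SE) in 2d-U against F (left) and 2+3d-C against 5d-U (right), with genes called higher in red, called lower in blue and not called in grey; an open point marks a gene with 3 or fewer reads per library in 1 group, whose value depends on the fit. The 18 genes coloured in both panels lie on opposite sides of 0.

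For steps with several enzymes, the share of each gene in the summed RPKM of its family was compared between libraries. The size of a share depends on the exon lengths used. These were 5379 bases for Eno1, 1739 for Eno3 and 13401 for Pfkp, beside 2027, 1454 and 4145 bases in their main transcripts. Stretches shared with other genes also make Eno1 and Pfkp uncertain, as given above. Slc16a3 made up 39.0%, 26.5% and 23.9% of the pair with Slc16a1 in 2+3d-C 5, 10 and 4, and 1.27% to 6.07% in the uncompressed cultures. F libraries held 12.5% to 25.5%, and F 4 with the highest of these overlapped 2+3d-C 4. Pfkp was 60.9% to 80.9% of the phosphofructokinases in 2+3d-C, 41.6% to 64.0% in F and 19.5% to 25.9% in culture without compression, where Pfkl made up 53.1% to 75.5%.

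Eno3 was 12.9% to 25.1% of the enolases in 2+3d-C and 49.8% to 74.5% in 2d-U and 5d-U, but 10.1% in F 1 and 68.7% and 72.9% in F 5 and F 4. The fresh libraries thus lay at both ends. Pdk4 was 92.2% and 95.2% of the Pdk kinases in 2+3d-C 4 and 10 and 67.6% in 2+3d-C 5, and 62.8% to 66.8% in 2d-U and 33.4% to 63.7% in 5d-U. Pdk3 took 32.3% to 58.7% in the uncompressed cultures, and its 32.3% in 2+3d-C 5 was at the low end of that range. Hk2 was 24.9% to 56.5% of the hexokinase pair in 2+3d-C and 3.64% to 17.2% in the uncompressed cultures, with F at 21.3% to 43.0%. Ldha remained the main subunit throughout, at 87.3% to 98.3% of the pair. With 3 libraries against 3 no exact permutation test on such shares can go below p = 0.1, so none was made.

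**Figure D5:**
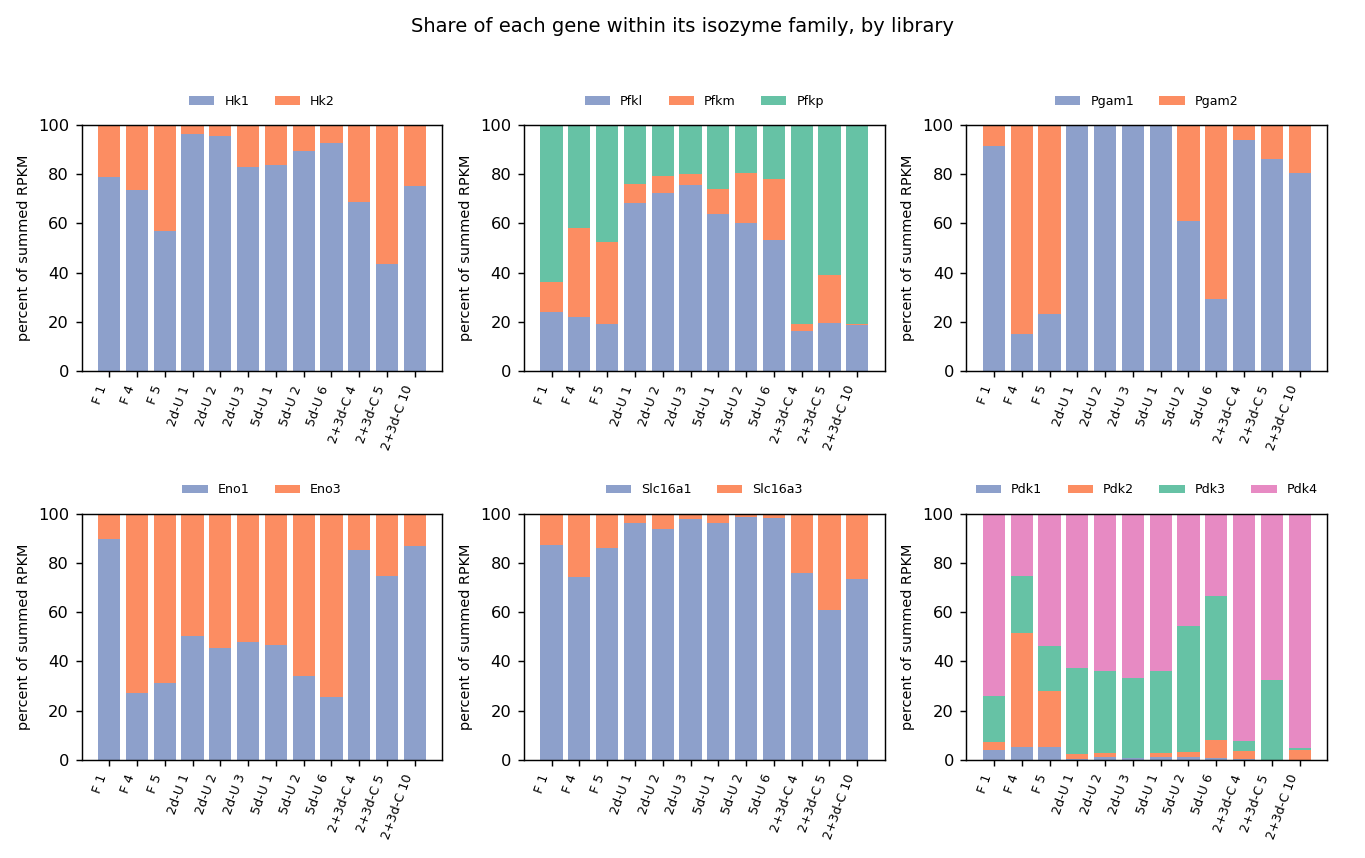
Share of each gene (stacked bars, percent of the summed RPKM of its family) in each library for the hexokinases, phosphofructokinases, phosphoglycerate mutases, enolases, lactate carriers and pyruvate dehydrogenase kinases. Pfkp, Slc16a3 and Hk2 take larger shares in 2+3d-C than in 2d-U and 5d-U, and Eno3 and Pgam2 vary most among the F libraries.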

How the data were processed

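RNA of 12 libraries (SMART-seq v4, single-end reads) was counted by the authors with featureCounts 1.6.4 on mm10 with a GENCODE annotation, without strand, and the deposited values are raw counts per gene, which were used unchanged. Genes were kept by filterByExpr (22635 of 55335), libraries were scaled by TMM and 1 model of the 4 groups was fitted with edgeR 4.0.16 in R 4.3.3. Levels per length used the exon lengths in the files. DESeq2 1.42.0, other filters and scalings, libraries left out, and subtraction of reads expected from 1853 silent genes were alternatives. Groups came from the labels. Deviations from the group means correlated at -0.424 to 0.0322 between libraries with the same replicate number. These values cannot show whether such libraries shared an animal or a sort. The paper says that sorted cells of a batch were split at random over the conditions. The members and lists were chosen with earlier results of these data known. All 34 genes are named, up to 12 called genes per comparison by smallest p are given with fold change and error, and others by values. Of other pathway genes, at most 3 per direction are named.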

Additional observations from a re-analysis of the deposited data

How the results depend on the processing

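No gene of the 34 reversed its direction in a called comparison: over the genes and alternatives, 1547 values kept their side of the threshold and 233 lost it. The counts of the 34 genes called moved as follows. Without the 4 libraries with reads on silent families they were 13 in 2+3d-C against 5d-U, 0 against F, 13 in 2d-U against F, 1 in 5d-U against F and 0 in 5d-U against 2d-U. With the replicate block they were 3, 4 (against 2d-U), 4 (against F), 8 and 4 in the same order, without the last. Whether the replicate numbers mark a shared animal or sort is not known, so a pairing was not excluded. No replicate number of 2+3d-C occurs in 5d-U or 2d-U, so the block fit compared them only by way of F. If the numbers mark sorts, a direct comparison of 2+3d-C with either uncompressed culture cannot tell compression and sort apart. Against F, 2+3d-C had 2 calls with library size, 5 with DESeq2, 4 without the filter and 2 among genes with at least 5 CPM. In 5d-U against 2d-U, 0 were called in the pair of groups alone or after subtraction. Genes called in both steps numbered 10 without the 4 libraries and 3 with the replicate block.

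With 1 library left out, the counts ranged from 16 to 24 in 2+3d-C against 5d-U, 16 to 23 against 2d-U, 0 to 5 against F, 17 to 27 in 2d-U against F, 15 to 24 in 5d-U against F, 1 to 2 in 5d-U against 2d-U and 14 to 20 for both steps. For the other pathway genes they ranged from 20 to 32, 18 to 30, 0 to 11, 22 to 44, 17 to 33 and 1 to 5. Their counts were 13, 0, 8, 0 and 0 without the 4 libraries (2+3d-C against 5d-U and F, 2d-U against F, 5d-U against F and 2d-U), and 8, 7, 9, 6 and 1 with the replicate block (2+3d-C against 5d-U and 2d-U, 2d-U against F, 5d-U against F and 2d-U). Against F, 2+3d-C had 9 with DESeq2 and 2 among genes with at least 5 CPM. 5d-U against 2d-U had 1 with library size, 6 with DESeq2 and 7 without the filter. After subtraction the mean share of Aldoa was 100% in 2+3d-C and in both uncompressed cultures, of Pgam1 100% in 2d-U and of Slc2a1 99.3% in 5d-U. The cause of these shifts was not tested, except that leaving out the 4 libraries leaves 1 library in F and in 5d-U, assumed to vary like the others.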

Other observations

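Beyond the 34 genes, 69 further genes of glucose and pyruvate metabolism were examined, of which 67 were tested. In 2+3d-C against 5d-U 5 of these rose and 20 fell, beside 9.14% and 13.4% of all genes tested, and their median log2 fold change was -1.02 beside -1.05 over all genes. Slc2a3, a glucose transporter of high affinity, rose from 0.310 ± 0.136 to 4.71 ± 1.38 RPKM (SD, n = 3, log2 3.93, SE 0.517, edgeR adjusted p = 0.000155). Pgm2 rose from 18.8 ± 3.91 to 105 ± 4.24 RPKM (log2 2.48, SE 0.373, edgeR adjusted p = 0.000399), while Pgm1 fell from 23.2 ± 4.49 to 1.65 ± 0.531 RPKM (log2 -3.82, SE 0.569, edgeR adjusted p = 0.000367). Both belong to the phosphoglucomutase family, which links glycogen and glycolysis. Pdp1, a phosphatase that switches pyruvate dehydrogenase on, rose from 4.84 ± 2.46 to 23.4 ± 7.56 RPKM (edgeR adjusted p = 0.00590).

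Suclg1, of succinyl-CoA synthetase, fell from 101 ± 56.7 to 10.3 ± 4.52 RPKM (log2 -3.29, SE 0.491, edgeR adjusted p = 0.000367). Slc25a11, the mitochondrial oxoglutarate carrier, fell from 109 ± 45.6 to 12.4 ± 5.15 RPKM (log2 -3.13, SE 0.489, edgeR adjusted p = 0.000522). Beside the 9.14% of all genes that rose and 13.4% that fell, in the pentose phosphate pathway 4 of 7 genes fell and 0 rose by edgeR (5 and 0 at an unadjusted p under 0.05, 5 and 0 by DESeq2). Of 11 other TCA cycle genes 4 fell and 0 rose by edgeR (8 and 0 unadjusted, 4 and 0 by DESeq2), to be read against the same shares of all genes.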
